A study of Mus musculus with 9 samples.

Results

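The RNA levels of 9 enzymes of folate-dependent one-carbon metabolism and purine nucleotide synthesis, *Tyms*, *Mthfd1*, *Mthfd2*, *Shmt1*, *Shmt2*, *Impdh1*, *Impdh2*, *Gart* and *Paics*, were examined in mouse leukemia clones. The genes were picked by name, with earlier results of the same libraries already known, and all 9 were found among the 55401 genes of the deposited tables. Which values led to the choice is not stated, so every difference between groups counts as used for it, and the members are described, with no p-value given in support of a difference. Where a member is said to be called or not called, nothing is read from that.

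Folate coenzymes carry one-carbon units between pathways. Serine hydroxymethyltransferase moves a carbon from serine to tetrahydrofolate, in the cytosol through SHMT1 and in mitochondria through SHMT2. MTHFD1 and the mitochondrial MTHFD2 interconvert the oxidation states of that carbon. Formyl-tetrahydrofolate then supplies the purine ring at steps that include the one run by GART, PAICS acts further down the same route, and IMPDH1 and IMPDH2 take inosine monophosphate towards guanine nucleotides. Thymidylate synthase, encoded by *Tyms*, uses a folate-bound carbon to make the thymidylate of DNA. These routes feed DNA and RNA synthesis in dividing blood cells and are targets of antimetabolite drugs.

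RNA-Seq was done on 9 libraries, 3 per group, of splenocytes sorted as CD45.1+, bright for truncated EGFR, cKit+ and dim or negative for CD11b. All cells descended from lineage-negative bone marrow of C57BL/6-Ly5.1 mice that carried a gammaretroviral vector for *Hoxa9*, *Meis1* and puromycin resistance (the H9M model of acute myeloid leukemia). All of them, in every group, also carried a CRISPR-Cas9 edit and a lentiviral color-coding vector. Mixed clones grew in lethally irradiated C57Bl6/J recipients with helper bone marrow, so unmarked host and helper cells were present in the same spleens. Pre-malignant libraries came from mouse #15, killed before leukemia, and each represents another clone (33BC-D, 43BC-D or 38BC-D). De novo expanded libraries are these clones at the leukemic endpoint, 38BC-D from mouse #13, 43BC-D from mouse #14 and 33BC-D from mouse #17. The stably expanded group was clone 34BC-D from these endpoint mice. Stage cannot be told apart from the pre-malignant mouse, and stable expansion cannot be told apart from clone 34BC-D. Ages of the mice were not given in the sources used here. The labels tie each column to a group but not to a clone or mouse, so the numbers 1 to 3 given to libraries below name no clone and pair nothing. In bulk RNA, fewer cells of a type and less RNA per cell cannot be told apart.

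Each library had between 10379739 and 15551196 reads on genes, and the members had between 307 and 3298 reads each. The counting SD was then between 5.71% and 1.74% of the value and covers counting error only. De novo expanded library 3 differed from libraries 1 and 2 of its group. It had 15796 CPM (reads per 1000000 reads on genes) for the myeloperoxidase gene *Mpo* and 2148 CPM for *Elane*, against 1637 and 2658 CPM of *Mpo* and 148 and 267 CPM of *Elane* in the other de novo expanded libraries. Results that involve it are therefore given with and without it. Without it the de novo expanded group rests on libraries 1 and 2 alone. The clone of library 3, which the labels do not name, then stays in the pre-malignant group only, so these groups no longer hold the same clones. RNA of sort genes was present, with *Kit* between 142 and 287 CPM, *Ptprc* between 310.3 and 385 CPM and *Itgam* between 27.8 and 85.7 CPM. These RNA levels do not show the surface amounts by which cells were sorted. The 5 B cell markers summed to 211 to 251 CPM in pre-malignant, 73.5 to 202 CPM in de novo expanded and 83.9 to 102 CPM in stably expanded libraries, most of it *Ighm*, while *Ms4a1* stayed between 0.206 and 2.84 CPM. The 5 T cell markers summed to at most 2.40 CPM, with *Cd3e* and *Trac* at 0 in 3 libraries each. The 6 erythroid markers summed to 15.2 to 29.7, 1.76 to 12 and 2.02 to 20.9 CPM in the same order of groups. The 5 macrophage markers summed to 87.3 to 183, 53.5 to 242 and 171 to 229 CPM, mainly *Vcam1* and *Adgre1*, with *C1qa* at 0 in 4 libraries. The 10 myeloid progenitor and sort genes summed to 9487 to 9905 CPM in pre-malignant, 11282 to 13144 CPM in stably expanded, and 3524, 5120 and 20888 CPM in de novo expanded libraries 1 to 3. In this sum de novo expanded libraries 1 and 2 were below every library of the other groups, and library 3 was above them. *Mpo* made up most of the sum in library 3 and ran from 1637 to 15796 CPM over all libraries. *Cebpa* ran from 119 to 166 CPM and *Csf3r* from 45.2 to 192 CPM, so the sum does not stand for each gene of the list. The sum of the B cell markers, most of it *Ighm*, was thus higher in the pre-malignant libraries than in any leukemic library, at the closest 211 against 202 CPM. The part of B cells in the results was not tested.

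The 9 members had 10 start sites in the RefSeq promoter table on GRCm38.p6, the build of the deposited files, with 2 for *Impdh1*. The 250 bases before each start site were searched on both strands for the E-box CACGTG, read by MYC-type factors, the GC box GGGCGG, the CCAAT box CCAAT and the E2F letters TTTGGCGC or TTTCCCGC. These routes are known MYC and E2F target pathways, which is why these letters were searched. An E-box was found in 3 of 10 windows, against 6.02% of all 32851 windows of that length. It began 61 bases before the start site in *Tyms*, 110 bases before it in *Impdh2* and 203 bases before it in *Paics*. The *Impdh2* window holds an annotated exon of *Impdh2*, and its E-box lies inside the annotated gene. The *Paics* window holds an exon of the neighbour *Ppat*. The GC box was found in 8 of 10 windows against 32.7% of all windows, the CCAAT box in 5 of 10 against 33.8%, and the E2F letters in 0 of 10 against 1.30%. A match is a description of the letters and not of binding. Both *Impdh1* windows are shown because its level moved most between groups, *Gart* because its libraries did not overlap in any comparison of groups, and *Tyms*, *Impdh2* and *Paics* for their E-box. Capitals mark E-box and GC box letters in the 250-base windows and the E-box alone in the 30-base stretches, all 5′ to 3′ along the gene.
Impdh1, outer start site (chr6:29216365-29216614, minus strand): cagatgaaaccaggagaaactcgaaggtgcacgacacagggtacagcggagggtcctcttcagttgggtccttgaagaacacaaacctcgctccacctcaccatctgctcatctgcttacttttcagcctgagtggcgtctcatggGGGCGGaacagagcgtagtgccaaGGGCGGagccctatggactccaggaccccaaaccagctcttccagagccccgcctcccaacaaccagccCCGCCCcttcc
Impdh1, inner start site (chr6:29212298-29212547, minus strand): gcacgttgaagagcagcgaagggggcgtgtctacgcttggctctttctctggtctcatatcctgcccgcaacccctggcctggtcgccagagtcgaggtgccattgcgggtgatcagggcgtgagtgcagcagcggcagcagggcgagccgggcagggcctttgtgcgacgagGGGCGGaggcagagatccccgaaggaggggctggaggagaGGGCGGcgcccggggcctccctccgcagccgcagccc
Gart (chr16:91646973-91647222, minus strand): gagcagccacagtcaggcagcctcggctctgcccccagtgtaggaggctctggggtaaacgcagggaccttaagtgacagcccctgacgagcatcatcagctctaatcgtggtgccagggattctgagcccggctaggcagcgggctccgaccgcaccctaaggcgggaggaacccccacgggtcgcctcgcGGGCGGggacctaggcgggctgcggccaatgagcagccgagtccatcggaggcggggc
Tyms (chr5:30073626-30073875, minus strand): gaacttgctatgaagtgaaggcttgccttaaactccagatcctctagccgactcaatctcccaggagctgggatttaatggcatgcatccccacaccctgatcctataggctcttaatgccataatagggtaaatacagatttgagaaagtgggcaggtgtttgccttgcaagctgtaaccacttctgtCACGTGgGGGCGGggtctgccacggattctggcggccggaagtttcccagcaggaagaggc
Impdh2, E-box stretch (chr9:108560314-108560343, plus strand): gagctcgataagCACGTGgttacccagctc
Paics, E-box stretch (chr5:76951087-76951116, plus strand): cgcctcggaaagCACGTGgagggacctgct

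Per kilobase of gene length, *Shmt2* had the highest median level of the members over the 9 libraries (51.4 CPM per kb), followed by *Paics* (38.8), *Gart* (35.6), *Impdh2* (28.8), *Mthfd1* (24.4), *Impdh1* (21.9), *Shmt1* (15.3), *Tyms* (10.1) and *Mthfd2* (8.85 CPM per kb). That length counts all annotated exon bases of a gene and not those of a transcript, so the order also depends on the annotation. Neighbours in this order overlapped in their ranges over the libraries in every case. The span from the lowest to the highest library was 1.56-fold for *Shmt1*, 1.58-fold for *Paics*, 1.6-fold for *Tyms* and 1.61-fold for *Impdh2*. It was wider for *Mthfd2* (2.59-fold) and widest for *Impdh1* (4.15-fold).

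*Tyms* (chromosome 5 from 30058202 to 30073617) makes thymidylate for DNA. It was at 57.3, 60.6 and 51.8 CPM in pre-malignant, 71.3, 61.4 and 67.9 CPM in de novo expanded, and 82.3, 66.9 and 51.4 CPM in stably expanded libraries. Every de novo expanded library was above the pre-malignant ones, the closest by under 1 CPM, while the stably expanded libraries spanned the range of both other groups. The pseudogene *Tyms-ps* had between 1 and 8 reads. Whether reads of *Tyms* that match both were left uncounted was not tested.

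*Mthfd1* (chromosome 12 from 76255298 to 76319803) is the cytosolic trifunctional enzyme that makes formyl-tetrahydrofolate. Its level was 87.0, 92.4 and 107 CPM in pre-malignant, 154, 133 and 108 CPM in de novo expanded, and 104, 129 and 112 CPM in stably expanded libraries. De novo expanded library 3 was close to the highest pre-malignant library, and the other de novo expanded libraries lay above all stably expanded ones. *Shmt1* (chromosome 11 from 60788104 to 60811718), the cytosolic serine hydroxymethyltransferase, was at 46.5, 49.0 and 52.4 CPM in pre-malignant, 72.4, 61.0 and 61.7 CPM in de novo expanded, and 59.4, 61.0 and 51.7 CPM in stably expanded libraries. Its de novo expanded libraries were above those of the pre-malignant group without exception, and library 3 did not stand apart. *Shmt1* shares 184 exon bases with *Smcr8* on the other strand, which was at 116 to 156 CPM and showed its lowest values in de novo expanded libraries 1 and 2. The strand setting of the counting was not stated, so reads of such partners may not be told apart.

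*Shmt2* (chromosome 10 from 127517123 to 127522444), the mitochondrial counterpart, was at 123, 150.1 and 159.8 CPM in pre-malignant, 244, 201 and 126 CPM in de novo expanded, and 145, 182 and 169 CPM in stably expanded libraries. *Mthfd2* (chromosome 6 from 83305691 to 83325908), the mitochondrial dehydrogenase and cyclohydrolase, was at 24.9, 26.2 and 28.5 CPM in pre-malignant, 51.9, 30.9 and 20.0 CPM in de novo expanded, and 31.4, 35.4 and 30.9 CPM in stably expanded libraries. In both genes the de novo expanded group held the highest library of the study, library 1, and its library 3 lay within or below the pre-malignant range. Stably expanded libraries of *Mthfd2* were all above the pre-malignant ones, and those of *Shmt2* overlapped them.

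*Gart* (chromosome 16 from 91621186 to 91646952) encodes an enzyme with 3 activities in the making of the purine ring. It was at 143, 160.5 and 165 CPM in pre-malignant, 243, 212 and 200 CPM in de novo expanded, and 198, 181 and 183 CPM in stably expanded libraries. The groups were ordered without overlap, pre-malignant lowest and de novo expanded highest, and the gap between the latter and the stably expanded group was about 2 CPM. The antisense gene *Gm15964* covers 1014 bases, or 19.7%, of the *Gart* exons on the other strand, and it had 64 to 205 reads against 1880 to 3298 for *Gart*. *Paics* (chromosome 5 from 76951307 to 76967509), which runs later steps of the same route, was at 119, 109.6 and 148 CPM in pre-malignant, 153, 173 and 117 CPM in de novo expanded, and 122, 151 and 121 CPM in stably expanded libraries. All groups of *Paics* overlapped. It shares 272 exon bases with *Ppat*, the first enzyme of the route on the other strand, which was at 57.6 to 69.9 CPM in pre-malignant, 74.6 to 86.0 CPM in de novo expanded and 66.8 to 76.6 CPM in stably expanded libraries.

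*Impdh1* (chromosome 6 from 29200434 to 29216364) and *Impdh2* (chromosome 9 from 108560286 to 108565584) encode the isozymes of inosine monophosphate dehydrogenase. *Impdh1* was at 56.5, 53.5 and 44.8 CPM in pre-malignant, 57.1, 72.3 and 186 CPM in de novo expanded, and 131, 102 and 128 CPM in stably expanded libraries. All stably expanded libraries were above the pre-malignant range, de novo expanded libraries 1 and 2 were close to it, and library 3 was the highest of all. *Impdh2* was at 81.7, 84.3 and 100 CPM in pre-malignant, 127, 109 and 78.4 CPM in de novo expanded, and 82.3, 94.5 and 88.7 CPM in stably expanded libraries. De novo expanded library 3, the highest for *Impdh1*, was the lowest of the study for *Impdh2*. Reads of *Impdh2* could be split with the pseudogene *Impdh2-ps*, which had 31 to 66 reads against 921 to 1702.

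**Figure D1:**
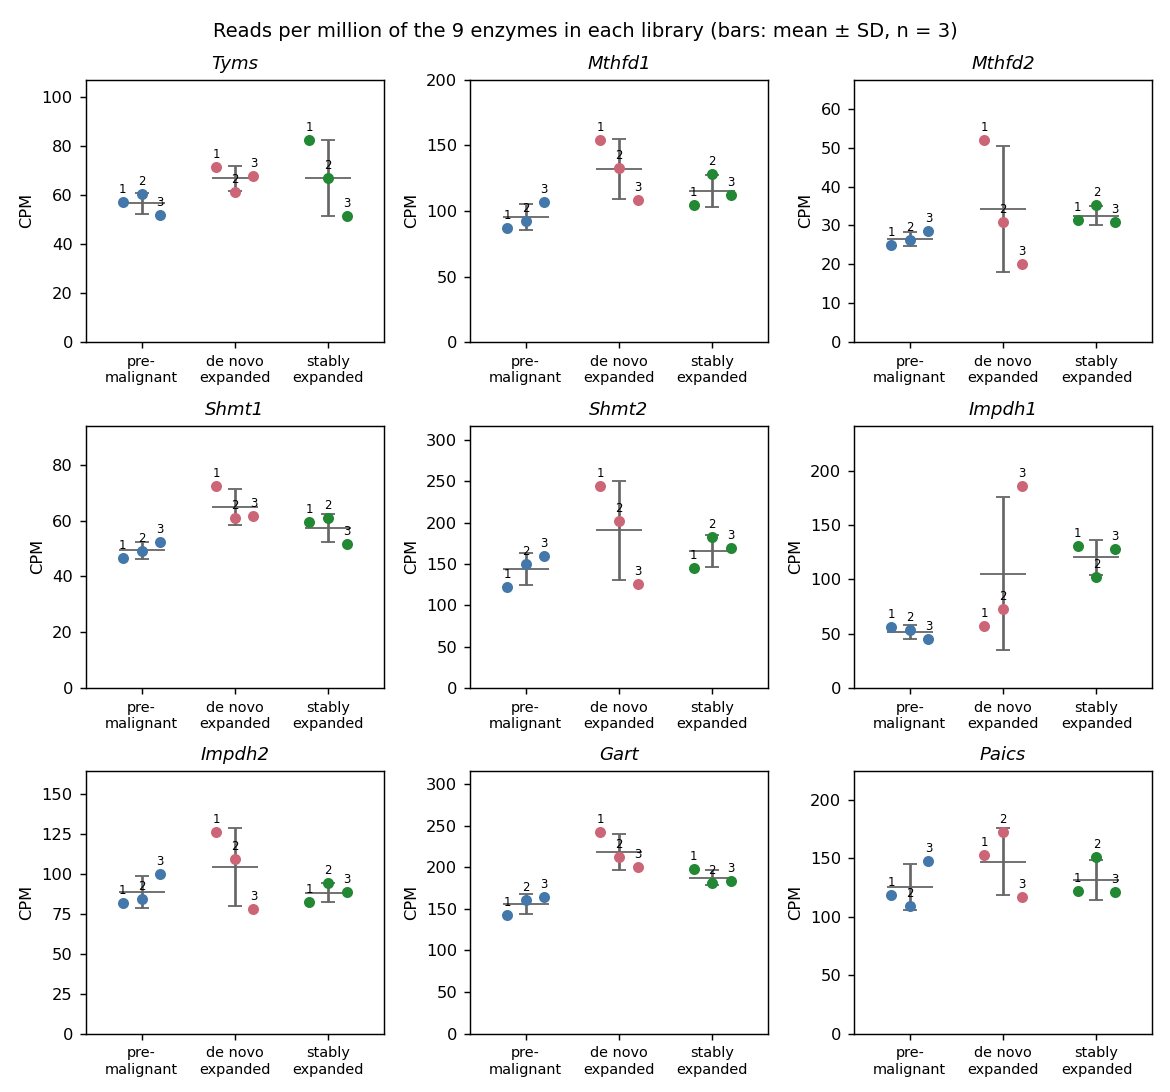
CPM of the 9 enzymes (vertical axes, from 0) in each library, numbered 1 to 3 within the pre-malignant, de novo expanded and stably expanded groups; grey bars give the mean and SD (n = 3). *Impdh1* lies between 102 and 131 CPM in stably expanded and between 44.8 and 56.5 CPM in pre-malignant libraries, and de novo expanded library 3 is the highest for *Impdh1* (186 CPM) and the lowest for *Mthfd2* (20.0 CPM) and *Impdh2* (78.4 CPM).

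The first comparison asked which genes differ when a clone of the pre-malignant mouse is taken again from a leukemic mouse. All 9 members had a higher mean in the de novo expanded than in the pre-malignant libraries, as did 51.0% of all genes tested, but 0 of them passed an adjusted p-value of 0.05 with a 2-fold difference, as did 0% of 14195 genes tested with limma on log2(normalized count + 1). With limma 1597 of these genes (11.3%) had an unadjusted p-value under 0.05. Their log2 fold changes lay between 0.23 and 0.85, with a median of 0.38 against 0.0079 over all genes tested. *Gart* differed by 0.50 (SE 0.11), *Mthfd1* by 0.47 (SE 0.15) and *Shmt1* by 0.41 (SE 0.12), and the standard errors of *Impdh1* (0.85, SE 0.41), *Shmt2* (0.38, SE 0.23) and *Mthfd2* (0.28, SE 0.31) were larger. *Tyms* (0.26, SE 0.12), *Paics* (0.24, SE 0.17) and *Impdh2* (0.23, SE 0.18) differed least. Overlap was judged on the normalized counts of each table, whose scaling differs from that of CPM. On that scale the groups did not overlap in 5 of 9 members, *Tyms*, *Mthfd1*, *Shmt1*, *Impdh1* and *Gart*, all higher, while 10.6% of all genes tested were higher without overlap.

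Without de novo expanded library 3, the de novo expanded libraries were above the pre-malignant ones for all 9 members, as they were for 20.9% of 14224 genes tested. The median log2 fold change of the members was then 0.44 and 0.0026 over all genes. *Shmt2* moved from 0.38 to 0.64 (SE 0.13) and *Mthfd2* from 0.28 to 0.60 (SE 0.21), and *Impdh1* went down from 0.85 to 0.33 (SE 0.15). Of the members, 0 were called, and 1.5% of all genes were. The direction of each member was the same with and without library 3. Leaving out de novo expanded library 1 instead lowered the median of the members to 0.21. *Mthfd2* was then at -0.070, *Impdh2* at 0.089 and *Shmt2* at 0.17, and only *Impdh1* rose, to 1.19.

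The stably expanded clone was compared with the pre-malignant clones next. *Impdh1* was 2.33-fold higher in the stably expanded clone, a log2 fold change of 1.22 (SE 0.14), and it was the only member among the 384 genes called of 13968 tested (2.75%). In 1 fit of all 9 libraries it was not called. The others differed little. *Mthfd2* was higher by 0.30 (SE 0.13), *Mthfd1* by 0.27 (SE 0.11), *Gart* by 0.27 (SE 0.093), *Tyms* by 0.22 (SE 0.16), *Shmt1* by 0.22 (SE 0.11) and *Shmt2* by 0.21 (SE 0.12) on the log2 scale. *Paics* was at 0.075 (SE 0.13). *Impdh2* was at 0.0046 (SE 0.11), and its sign turned with quantile normalization, median centring, edgeR and DESeq2. The groups did not overlap in 4 of 9 members, *Impdh1*, *Mthfd2*, *Shmt1* and *Gart*, against 16.1% of all genes tested in the higher direction. In CPM *Shmt1* overlapped, with stably expanded library 3 below pre-malignant library 3. The median of the members was 0.22 and that of all genes 0.0042.

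Between the leukemic groups, 0 of 9 members were called, and 1 of 13758 genes tested was (0.00727%), while 4.83% had an unadjusted p-value under 0.05 with limma. Log2 fold changes of stably over de novo expanded ran from -0.21 for *Impdh2* (SE 0.17) and *Gart* (SE 0.11) to 0.39 for *Impdh1* (SE 0.41). *Gart* and *Shmt1* (-0.17, SE 0.12) were lower in the stably expanded libraries without overlap in normalized counts, as were 4.95% of all genes, and in CPM *Shmt1* overlapped. *Tyms* (-0.018, SE 0.18) and *Mthfd2* (0.038, SE 0.31) were near 0, and both signs turned with edgeR and DESeq2. The median of the members was -0.15 against -0.0021 over all genes.

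Without de novo expanded library 3, *Impdh1* was 1.88-fold higher in the stably expanded clone (log2 fold change 0.91, SE 0.16). It was not called, and 508 of 13756 genes (3.69%) were. In normalized counts 6 of the members were lower without overlap, which held for 18.5% of all genes, namely *Mthfd1*, *Shmt1*, *Shmt2*, *Impdh2*, *Gart* and *Paics*. In CPM *Shmt1* overlapped here too. *Shmt2* was at -0.41 (SE 0.13), *Impdh2* at -0.40 (SE 0.12), *Mthfd1* at -0.30 (SE 0.12), *Paics* at -0.30 (SE 0.12) and *Gart* at -0.26 (SE 0.11). The comparisons share their libraries in pairs, so their values stand side by side and are not independent of each other.

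**Figure D2:**
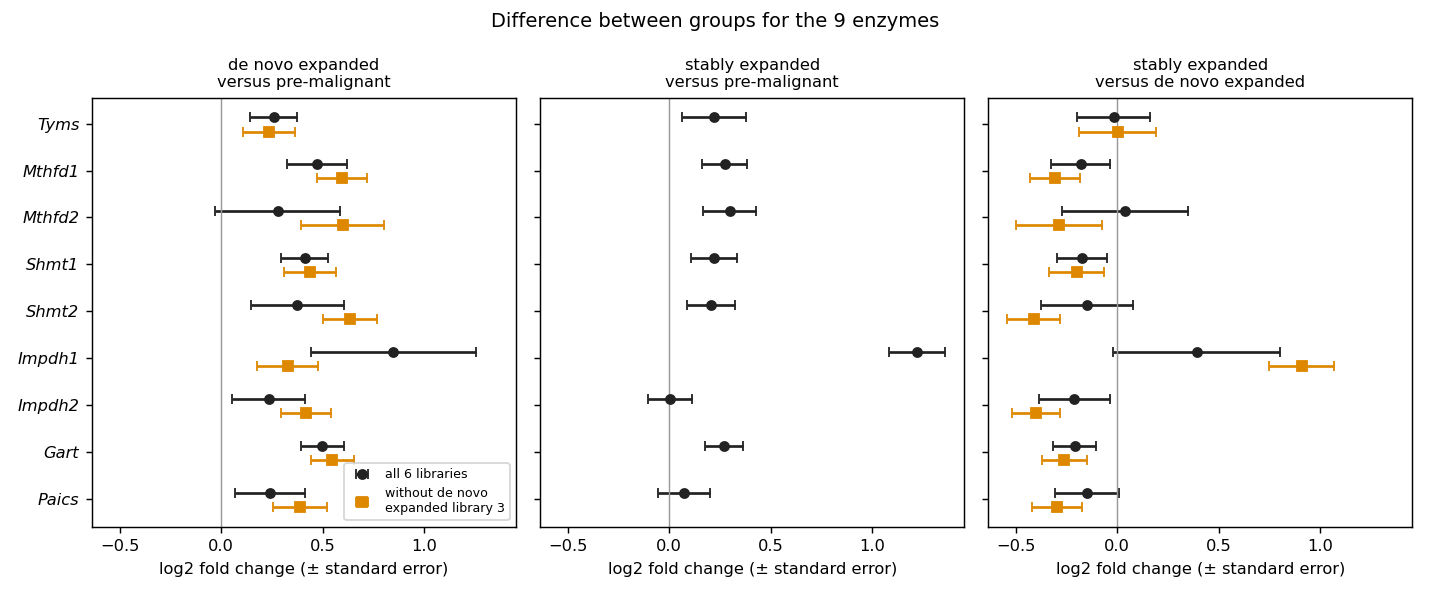
Log2 fold changes (horizontal axis) with standard errors for the 9 enzymes in 3 comparisons of groups; black circles use all 6 libraries and orange squares leave out de novo expanded library 3. *Impdh1* is at 1.22 in the stably expanded clone against the pre-malignant clones, and without library 3 it moves from 0.85 to 0.33 in de novo against pre-malignant and from 0.39 to 0.91 in stably against de novo expanded.

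The balance of isozymes within a library does not depend on its scaling. Reads were divided by gene length, which counts all annotated exon bases of a gene and not those of a transcript. The ratio of *Impdh1* to *Impdh2* was then 0.646, 0.593 and 0.418 in pre-malignant, 0.421, 0.617 and 2.22 in de novo expanded, and 1.48, 1.01 and 1.35 in stably expanded libraries. This ratio was below 1 in the pre-malignant libraries and in de novo expanded libraries 1 and 2. It was above 1 in the stably expanded libraries, by little in library 2, and in de novo expanded library 3. Which of the isozyme RNAs was more abundant depends on the length used and cannot be stated. The ratio of mitochondrial *Shmt2* to cytosolic *Shmt1* was 3.64 ± 0.304 (SD, n = 3), 3.63 ± 0.932 and 3.63 ± 0.529 in pre-malignant, de novo expanded and stably expanded libraries. Its means differed by less than the spread between libraries, and de novo expanded library 3 had the lowest value, 2.55. The ratio of *Mthfd2* to *Mthfd1* was 0.355 ± 0.0134, 0.320 ± 0.0993 and 0.361 ± 0.0191, again with the lowest value, 0.236, in de novo expanded library 3. Within the purine route, *Gart* over *Paics* was 0.768 ± 0.111, 0.922 ± 0.154 and 0.882 ± 0.134 and overlapped between all groups.

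**Figure D3:**
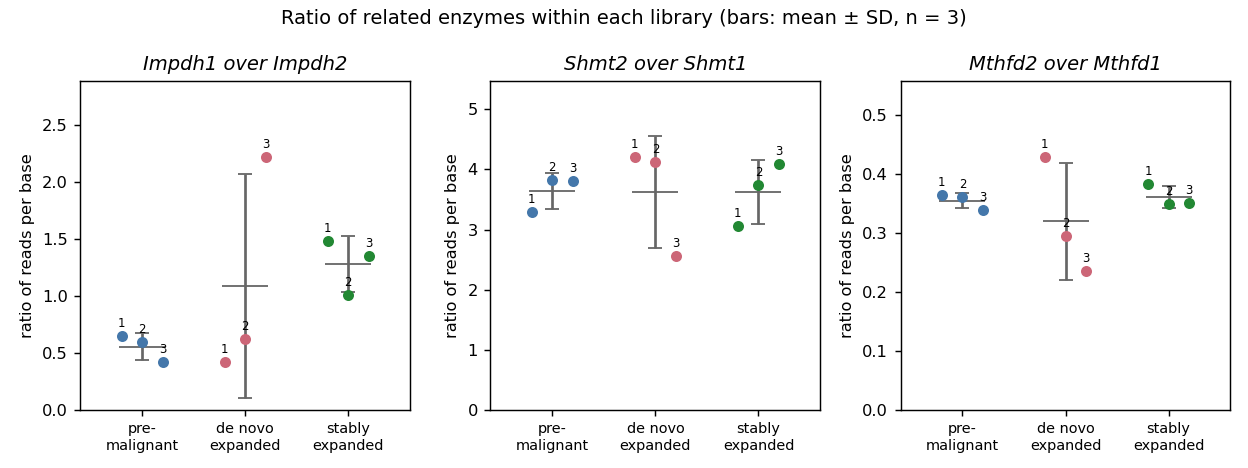
Ratio of reads per base of gene length (vertical axes, from 0) of *Impdh1* to *Impdh2*, *Shmt2* to *Shmt1* and *Mthfd2* to *Mthfd1* in each library, with group mean and SD (n = 3) in grey. The *Impdh1* ratio is above 1 in the 3 stably expanded libraries and in de novo expanded library 3 (2.22), and below 1 in the other 5 libraries.

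The 9 members together took 738, 786 and 857 CPM of the pre-malignant, 1172, 1054 and 965 CPM of the de novo expanded, and 955, 1003 and 937 CPM of the stably expanded libraries, so both leukemic groups lay above the pre-malignant one. A list of 12 cell cycle genes, among them *Mki67*, *Top2a* and *Mcm2*, summed to 3210.0, 3688 and 3967 CPM, 4656, 4489.6 and 3535 CPM, and 4395, 4438 and 3645 CPM in the same order. These sums overlapped between all groups. De novo expanded library 3 was the lowest of its group in both sums. By gene, all 12 cell cycle genes had a log2 fold change above 0 in both comparisons with the pre-malignant group. In the de novo expanded one 51.0% of all genes did so. Their median was 0.25 there, against 0.38 for the members and 0.0079 over all genes. For the stably expanded group it was 0.24, against 0.22 and 0.0042. Without library 3 the de novo expanded median was 0.41, against 0.44 and 0.0026. The part of the cell cycle genes in the members' differences was not tested. A list of 11 genes of the ATF4 amino acid response, which is known to include *Mthfd2* and the serine synthesis genes among its wider targets, summed to 365 to 381 CPM in pre-malignant, 340.3 to 394 CPM in de novo expanded and 363 to 399.7 CPM in stably expanded libraries. *Atf4* itself, *Cebpb* and *Aldh18a1* made up most of this sum, and *Asns* stayed between 2.26 and 13.2 CPM. Against the pre-malignant group, log2 fold changes of single genes ran from -0.65 to 0.92 in the de novo expanded group. In the stably expanded group they ran from -0.44 to 1.17.

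Another 65 genes of folate, purine and deoxynucleotide metabolism were read beside the members, in 9 lists written with earlier results known. In the de novo expanded group, 57 were tested and 0 passed the adjusted p-value in either direction, and 43 of 57 had a log2 fold change above 0. The medians of the lists ran from -0.26 for one-carbon interconversion to 0.65 for serine synthesis. All 9 tested genes of the rest of purine synthesis lay above 0, with a median of 0.31, among them *Adsl* at 0.34 (SE 0.14), *Ppat* at 0.31 (SE 0.12), *Atic* at 0.31 (SE 0.23), *Pfas* at 0.25 (SE 0.15) and *Gmps* at 0.10 (SE 0.099). The salvage gene *Hprt*, which reuses hypoxanthine and guanine, had the smallest unadjusted p-value of the lists with limma (0.00036, adjusted p = 0.301) and was higher by 0.63 (SE 0.10) without overlap. *Dut*, *Psph*, *Dtymk*, *Umps* and *Aprt* followed, with log2 fold changes of 0.49, 0.65, 0.40, 0.36 and 0.42 and adjusted p-values between 0.356 and 0.399. The folate carrier gene *Slc19a1* (0.36, SE 0.27), *Fpgs*, which retains folates in the cell (0.26, SE 0.16), the thymidine kinase gene *Tk1* (0.33, SE 0.26) and the mitochondrial *Mthfd1l* (0.021, SE 0.12) overlapped between the groups.

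Without de novo expanded library 3, limma found 7 of 56 tested list genes higher and 1 lower at an adjusted p-value under 0.05 without a fold limit, against 2.23% and 2.12% of all genes. *Psat1*, an enzyme of serine synthesis, rose by 0.79 (SE 0.11, adjusted p = 0.00526). It was at 84.8, 84.6 and 94.8 CPM in pre-malignant and 162, 141 and 89.9 CPM in de novo expanded libraries. The others that rose were *Hprt* by 0.66, *Prps2* by 0.76, *Cad* by 0.60, *Atic* by 0.58, *Rrm2* by 0.48 and *Rrm1* by 0.45, and the guanine deaminase gene *Gda* fell by 0.79 (adjusted p = 0.0291). *Prps2*, *Cad*, *Rrm1* and *Gda* were named after their values were seen. *Phgdh*, which opens serine synthesis, was at 5.46, 15.3 and 8.78 CPM in pre-malignant, 28.2, 17.9 and 6.33 CPM in de novo expanded and 3.33, 9.59 and 7.42 CPM in stably expanded libraries and did not pass (adjusted p = 0.0731 without library 3).

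In the stably expanded clone, limma found 6 of 56 tested list genes higher and 2 lower than in the pre-malignant clones at an adjusted p-value under 0.05, against 4.34% and 3.61% of all genes. Of these 8 genes, 5 (4 higher and 1 lower) were in the list of 11 for purine salvage and breakdown, of which 10 were tested. That list was written with earlier results known, so nothing is read from this count. *Hprt* rose by 0.73 (SE 0.10, adjusted p = 0.00443) from 65.3, 75.7 and 75.9 CPM to 125, 119 and 114 CPM, with de novo expanded libraries at 116, 111 and 105 CPM. *Aprt*, which salvages adenine, rose by 0.63 (SE 0.12, adjusted p = 0.0118). The adenosine deaminase gene *Ada* and the purine nucleoside phosphorylase gene *Pnp* rose by 0.89 (SE 0.22, adjusted p = 0.0370) and 0.70 (SE 0.18, adjusted p = 0.0438), and *Pnp* was named after its values were seen. *Xdh*, whose product degrades hypoxanthine and xanthine to uric acid, was the only list gene past the 2-fold limit and fell by 1.53 (SE 0.24, adjusted p = 0.00730). It was at 90.8, 114 and 134 CPM in pre-malignant, 68.6, 89.3 and 15.9 CPM in de novo expanded and 32.9, 61.5 and 27.9 CPM in stably expanded libraries. *Dut* rose by 0.65 (SE 0.10, adjusted p = 0.00741) and *Rrm2* by 0.52 (SE 0.14, adjusted p = 0.0402), and *Samhd1*, which degrades deoxynucleotides, fell by 0.44 (SE 0.10, adjusted p = 0.0270). *Slc19a1* (0.034), *Fpgs* (0.064), *Tk1* (0.26) and *Mthfd1l* (-0.049) overlapped with the pre-malignant libraries, as did *Pfas* (-0.0077), *Atic* (0.016), *Ppat* (0.15), *Adsl* (0.32), *Psat1* (0.17) and *Phgdh* (-0.53). *Psph* (0.62) and *Gmps* were higher without overlap. In normalized counts this held for 1 of 3 serine synthesis genes and 3 of 9 genes of the rest of purine synthesis, against 16.1% of all genes. Leaving out each of the 6 libraries in turn, *Hprt*, *Aprt*, *Xdh* and *Dut* passed in 6 of 6 fits, and *Ada*, *Pnp*, *Rrm2* and *Samhd1* in 2 of 6, with adjusted p-values of up to 0.135. *Pnp* did not pass with quantile normalization either (adjusted p = 0.0524 with limma), nor did *Rrm2* with quantile normalization (adjusted p = 0.0512) or median centring (adjusted p = 0.0502). In 1 fit of all 9 libraries, which shares the spread of the de novo expanded group, *Hprt* was the only one of these genes to pass (adjusted p = 0.0353).

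**Figure D4:**
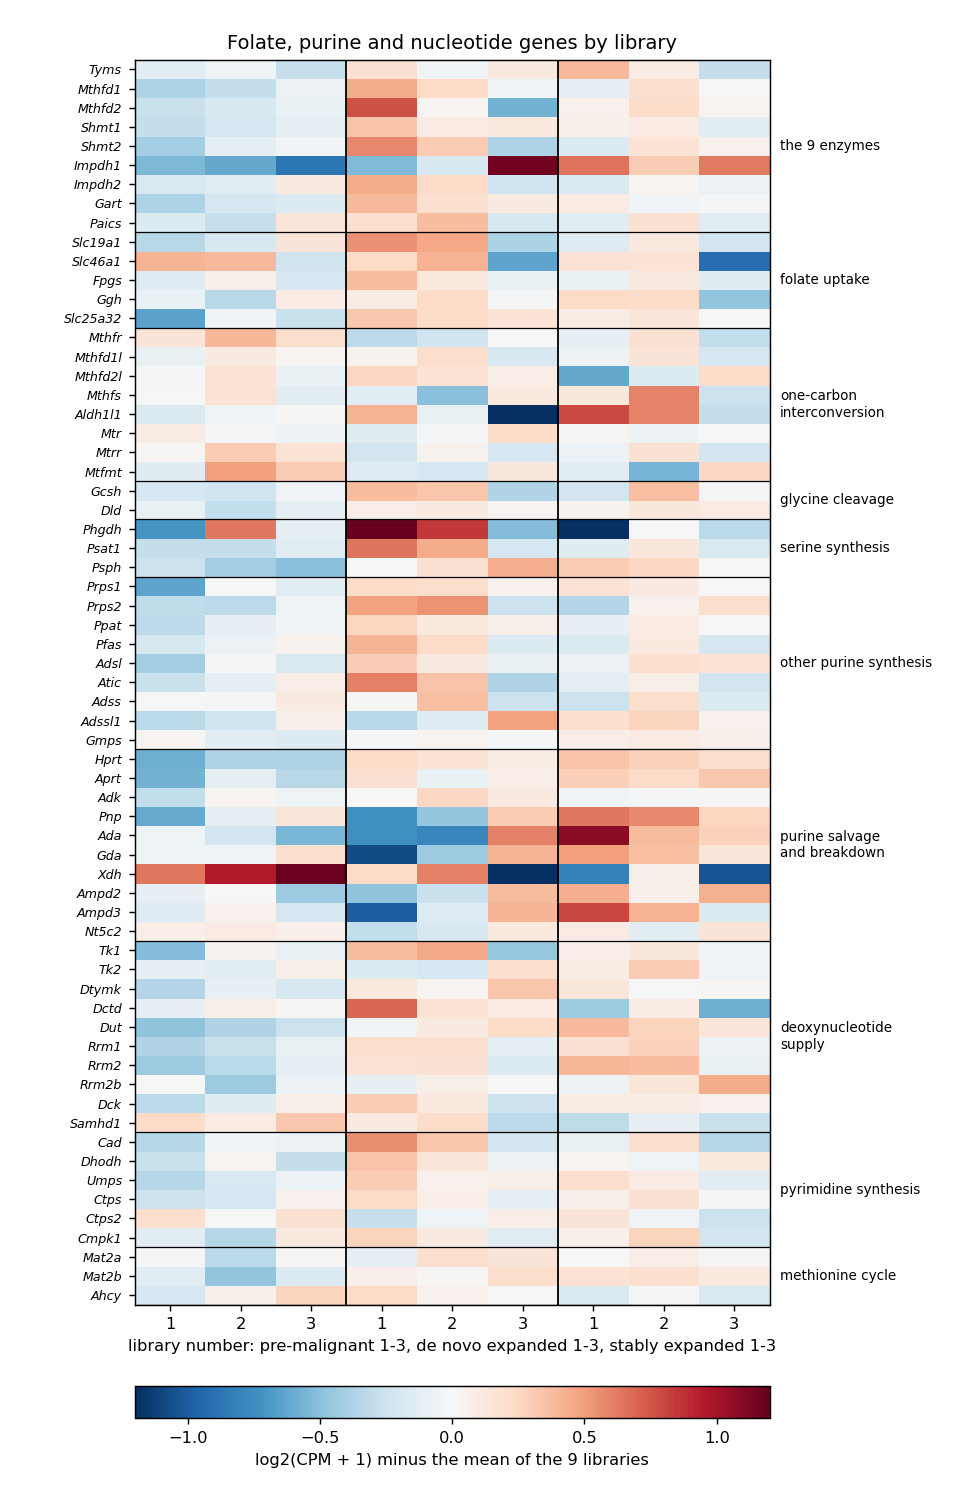
Log2(CPM + 1) minus the mean of the 9 libraries (colour, cut at 1.2 either way) for the 9 enzymes and the other list genes with a mean of at least 1 CPM (56 genes); columns are libraries 1 to 3 of the pre-malignant, de novo expanded and stably expanded groups. The column of de novo expanded library 3 differs from libraries 1 and 2 of its group, for example in *Impdh1*, *Ada* and *Gda* (higher) and in *Psat1*, *Mthfd2* and *Xdh* (lower).

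Between stably and de novo expanded libraries, 0 of 57 tested list genes passed the adjusted p-value with limma, and the unadjusted p-value was under 0.05 for 2 of them and for 4.83% of all genes. In normalized counts 3 list genes were higher and 4 lower without overlap, against 4.66% and 4.95% of all genes. *Pnp* was 1.76-fold higher in the stably expanded clone but the groups overlapped (log2 fold change 0.82, SE 0.28, adjusted p = 0.891), and *Dctd* was lower without overlap, at -0.66 (SE 0.25, adjusted p = 0.891). The higher ones were *Aprt* (0.23), *Hprt* (0.12) and *Gmps* (0.083), and *Ahcy* (-0.22) and *Ppat* (-0.14) were among the lower. In CPM the groups overlapped for *Hprt* and *Ppat*. Without de novo expanded library 3, limma called *Ada* (1.41, SE 0.25), *Pnp* (1.13, SE 0.17) and *Gda* (1.11, SE 0.18) as higher and *Phgdh* (-1.83, SE 0.41) as lower, with adjusted p-values between 0.00587 and 0.0312, against 3.69% of all genes called. *Psat1* (-0.60, adjusted p = 0.0248) and *Atic* (-0.55, adjusted p = 0.0336) fell and *Ampd2* (0.70, adjusted p = 0.0243), named after its value was seen, rose without reaching 2-fold.

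**Figure D5:**
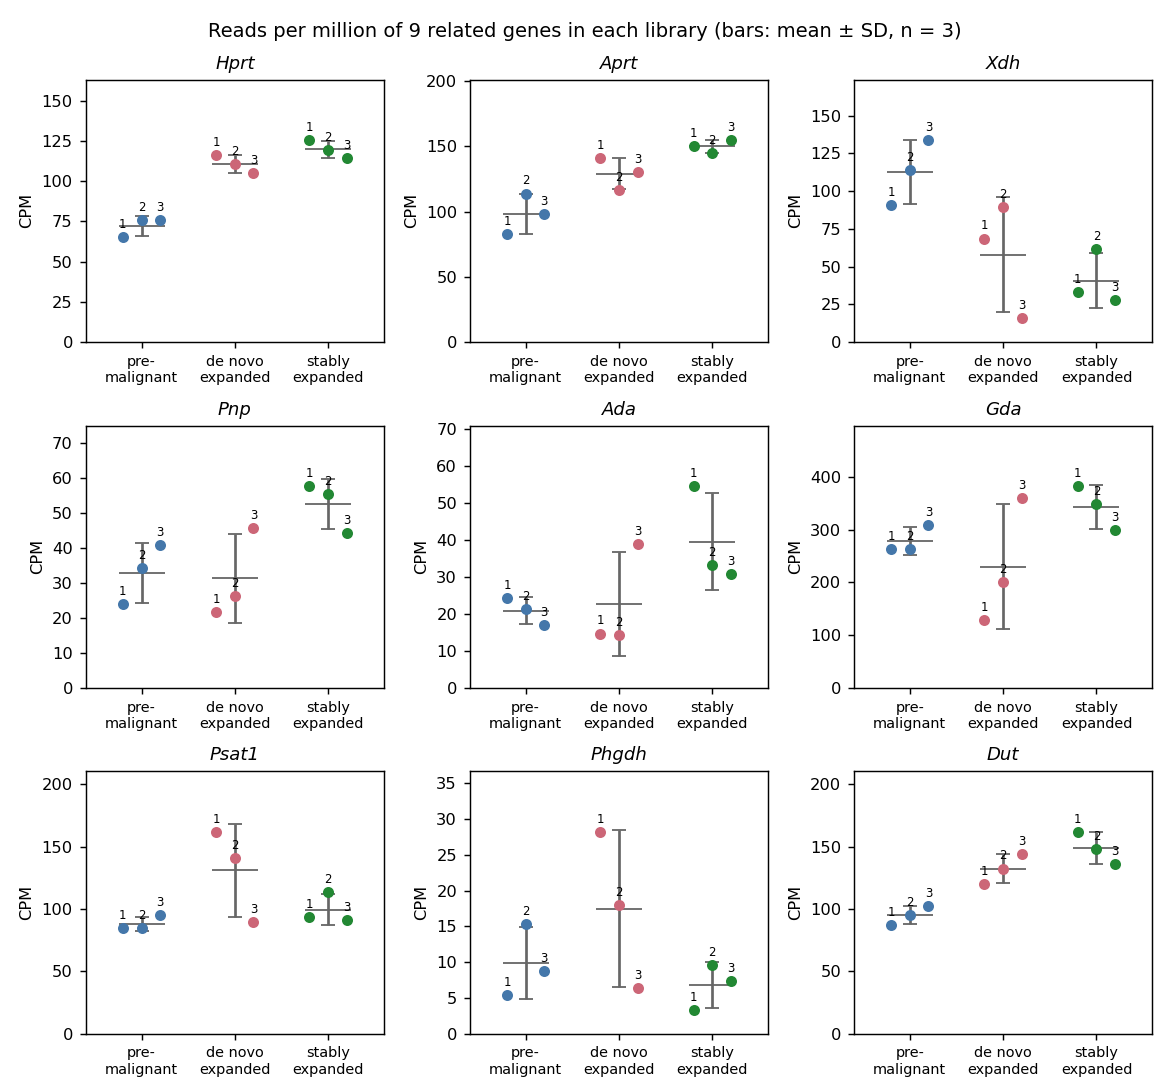
CPM of 9 related genes (vertical axes, from 0) in each library, numbered 1 to 3 within its group, with group mean and SD (n = 3) in grey. *Xdh* is between 27.9 and 61.5 CPM in stably expanded and 90.8 and 134 CPM in pre-malignant libraries, and *Hprt* is between 105 and 125 CPM in both leukemic groups against 65.3 to 75.9 CPM in pre-malignant libraries.

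Genes with the most similar pattern over the 9 libraries were found among 9768 genes with a mean of at least 5 CPM, by the root mean square difference of centred log2(CPM + 1). *Mthfd1* was closest to *Mrpl16*, *Dkc1* and *Cct6a*, at 0.061, 0.061 and 0.064, where its own SD over libraries was 0.24. *Shmt1* was closest to *Park7* at 0.042, *Impdh2* to *Ptpn9* at 0.053, *Paics* to *Cenpb* at 0.064, *Gart* to *Nhp2* at 0.074 and *Tyms* to *Camkk2* at 0.083. *Shmt2* and *Mthfd2* shared *Cdc42se2* among their nearest 3 genes, at 0.088 and 0.13. *Impdh1*, whose SD was 0.67, was closest to *Otud7b* at 0.20. The distance was not scaled to a gene's own SD, which was 0.19 to 0.35 in the other members. Distances of different members therefore cannot be set against each other.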

How the data were processed

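The authors sequenced SMARTer Stranded Total RNA-Seq v3 Pico libraries on a NextSeq 550, ran Trim Galore 0.6.4, STAR 2.6.1d and featureCounts 1.6.4 against GENCODE M25 annotation of GRCm38.p6, and normalized with DESeq2. Per the file headers, the deposited signal is a normalized count, the reads of a gene divided by size factors over the 6 libraries of each of 3 tables. The authors also deposited other values per gene, such as its length, its position and their own mean, fold change and p-value columns, and the last of these were not used. Whole reads were recovered here (at least 99.99% of nonzero values within 0.05 reads), the same in both tables of a library, and CPM were computed from them.

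Log2(normalized count + 1) was tested two-sided within each table with limma 3.58.1 in R 4.3.3 (empirical Bayes with trend). Genes under a mean of 10 normalized counts were left out. Benjamini-Hochberg adjustment ran over all genes tested, and calls needed an adjusted p under 0.05 and a 2-fold difference. Fold changes on this scale understate changes of low genes. P-values measure the spread between these libraries, and an exact permutation test of 3 against 3 cannot go below 0.1. The test was checked on simulated data, with changes larger than those of any member, so the check does not cover differences as small as theirs. Summaries used pandas 2.3.3 and numpy 2.4.6, and plots matplotlib 3.10.9, under Python 3.11.15.

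The members, the lists and the tests were chosen with earlier results of these data known. Named were the 9 members, 13 list genes including *Ppat*, *Psat1* and *Rrm2*, each list gene called, and per comparison the 6 list genes with the smallest unadjusted p among those without overlap. Alternatives were pseudocounts of 0.1 and 5, no filter or a mean of at least 50, quantile normalization, median centring, no fold limit, edgeR 4.0.16, DESeq2 1.42.0, 1 fit of all 9 libraries, and leaving out each library. Protein sequences were not used here. A list gene and a marker gene are not reported here.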

Additional observations from a re-analysis of the deposited data

How the results depend on the processing

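No paired analysis was possible because the labels link a column of the tables to a group and not to a clone or mouse. Genes called between de novo expanded and pre-malignant libraries numbered 0 with limma, 5 with no filter, 62 with DESeq2, 5 in 1 fit of all 9 libraries and 0 to 214 when each library was left out in turn. For stably expanded against pre-malignant libraries the number was 384, and 1110 with no fold limit, 6 in 1 fit of all 9 libraries and 206 to 452 with a library left out; *Impdh1* was the 1 member called, and 0 members were in the fit of all 9 libraries (log2 fold change 1.22, adjusted p = 0.134). Between the leukemic groups the number was 1, and 2 with no filter, 32 with DESeq2, 2 in 1 fit of all 9 libraries and 0 to 508 with a library left out. Both maxima of 214 and 508 came without de novo expanded library 3. The median log2 fold change of the members stayed between 0.21 and 0.45, between 0.21 and 0.28 and between -0.29 and -0.064 with a library left out, in the same order of comparisons. The sign of *Impdh2* in the stably expanded against the pre-malignant group turned to -0.034 with quantile normalization, -0.015 with median centring, -0.0055 with edgeR and -0.013 with DESeq2, and ran from -0.043 to 0.092 with a library left out. Between the leukemic groups *Tyms* turned to 0.00049 with edgeR and 0.0023 with DESeq2, and *Mthfd2* to -0.071 with both. With a library left out, *Mthfd2* ran from -0.070 to 0.60 in de novo expanded against pre-malignant, *Paics* from -0.024 to 0.20 in stably expanded against pre-malignant, and *Tyms* from -0.19 to 0.15, *Mthfd2* from -0.29 to 0.39 and *Shmt2* from -0.41 to 0.052 between the leukemic groups. The causes were not tested. With 3 libraries per group, differences of a member could go undetected, also where they were larger than its standard error.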
